A study of Homo sapiens with 3 samples.

Results

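Antisense long non-coding RNAs are transcripts made from the strand opposite to a gene, and their names carry the symbol of that gene, here called the sense gene, followed by AS and a number. Genes with a symbol ending in AS1, AS2 or AS3 were taken after the array's RefSeq accessions had been matched to symbols, which gave 285 antisense RNAs among 19699 named genes. Of these, 267 ended in AS1, 12 in AS2 and 6 in AS3, and they were measured by 324 probes. The choice used names only and no measured value. A sense gene was also on the array for 275 of them, with 269 distinct sense genes, since 12 antisense RNAs shared 6 sense symbols.

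PANC-1, an established cell line from a human pancreatic carcinoma, was treated with cantharidin or okadaic acid for 24 h and compared with control cells. Both agents inhibit protein phosphatase 2A, which removes phosphate groups from many signalling proteins. The labels gave 20 µM for each agent, although their treatment text can be read as giving that dose for cantharidin alone. Total RNA of each group was hybridised to 1 Agilent array in a single colour, so there was 1 array per group, and no difference could be tested against replicates.

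Antisense RNAs are known to act in several ways. Some recruit chromatin regulators to the locus they come from, some pair with or sequester other RNAs or proteins, and for others transcription through the shared region is what affects the neighbour. Where an antisense RNA starts close to its sense gene and runs away from it, both can arise from a single bidirectional promoter, which is common at CpG-rich promoters. Most antisense RNAs are less abundant than messenger RNAs and many stay in the nucleus.

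Epithelial keratins, which duct-derived lines such as PANC-1 are known to express, were bright on the arrays. KRT8 had processed intensities of 51898 on the control array, 20992 with cantharidin and 53027 with okadaic acid, and KRT18 had 70664, 127870 and 193320. The endothelial marker PECAM1 was not detected on the arrays, whereas the leukocyte marker PTPRC was detected, at 372, 263 and 405. PANC-1 is known as a line that lacks the CDKN2A locus, and the probes named for CDKN2A (2599, 2280 and 9224) and for CDKN2A-AS1 (166, 105 and 178) were nonetheless detected on all 3 arrays. What these probes bound was not tested.

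A level is given below as the processed intensity of the gene's brightest probe in scanner units, in the order control, cantharidin, okadaic acid. "Well above background" is the scanner software's own flag, and a gene whose brightest probe carries it is called detected. The lowest intensity with this flag was 35.0 on the array of control cells, 21.9 with cantharidin and 58.0 with okadaic acid. By this flag 172 of the 285 antisense RNAs (60.4%) were detected on the control array, 184 (64.6%) with cantharidin and 157 (55.1%) with okadaic acid. In all, 141 were detected on the 3 arrays together, 200 (70.2%) on at least 1, and 85 on none. Over all named genes the share detected on at least 1 array was 85.1%, over the sense genes 85.9%, over intergenic LINC genes 62.1%, and over genes measured through a non-coding RefSeq accession 69.9%. On the control array 138 pairs had both genes detected, 83 only the sense gene, 28 only the antisense RNA, and 26 neither.

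The first comparison asked which antisense RNAs differed between cantharidin and control cells. Values are log2 differences between arrays, each scaled to its 75th percentile, and a gene was compared when it was detected on at least 1 of the arrays in question and called at 1.5-fold. Of 198 antisense RNAs compared, 56 (28.3%) were called higher and 69 (34.8%) lower with cantharidin, and 73 were not called. Over all 16644 named genes compared the same calls came to 27.5% higher and 34.1% lower, so the antisense RNAs were called about as often as genes at large in this setting. LINC genes had 27.4% higher and 27.4% lower, and genes measured through a non-coding accession 31.6% and 25.9%. Another background correction (normexp, which also added an offset of 50) gave 42 antisense RNAs (21.2%) higher and 38 (19.2%) lower. Over all genes it gave 22.7% and 26.0%. At 2-fold 44 (22.2%) were higher and 38 (19.2%) lower, beside 20.1% and 22.3% over all genes. Which direction held more antisense RNAs thus depended on these choices. In the main setting their median difference was -0.18, against -0.16 over all genes. Among the 158 detected on both arrays, 35 were higher and 55 lower (22.2% and 34.8%), where all named genes had 25.6% and 33.1%, and the differences ran from -2.66 to 5.14 on the log2 scale.

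With okadaic acid, 184 antisense RNAs were compared. Of these, 44 (23.9%) were called higher and 36 (19.6%) lower, and 104 were not called. Over the 16166 named genes compared, 28.1% were higher and 28.8% lower, so both shares of the antisense RNAs lay below those of all genes. LINC genes had 29.6% higher and 20.6% lower, and genes measured through a non-coding accession 29.9% and 21.0%. The low share called lower was thus not particular to the antisense RNAs. The median difference of the antisense RNAs was 0.11, against 0.01 over all genes. Among the 145 detected on both arrays, 32 were higher and 26 lower (22.1% and 17.9%, against 28.1% and 27.1% over all genes), with differences from -3.22 to 4.73. The share called higher and lower depended on how the arrays were scaled. After scaling to the median, 38 antisense RNAs (20.7%) were higher and 47 (25.5%) lower with okadaic acid, beside 24.8% and 32.4% over all genes. The median over all genes then stood at -0.11.

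**Figure D1:**
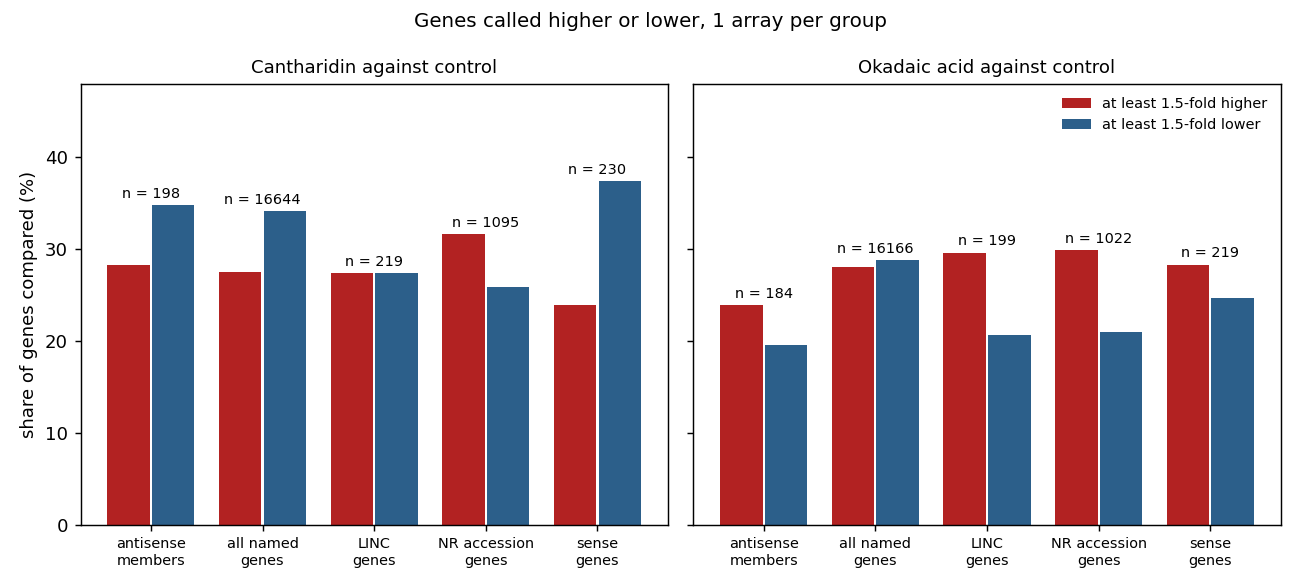
Share of compared genes called at least 1.5-fold higher (red) or lower (blue) than control, in percent, for antisense RNAs and 4 other classes of genes, with the number compared above each pair of bars. With okadaic acid the antisense RNAs had 23.9% higher and 19.6% lower, against 28.1% and 28.8% over all named genes and 29.6% and 20.6% over LINC genes.

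The scanner software gave an error for each spot, which covers the spot and not the culture. For detected antisense RNAs its median was 11.4% of the intensity on the control array, 11.1% with cantharidin and 11.8% with okadaic acid. Of the 90 antisense RNAs detected on both arrays and called with cantharidin, 87 differed by more than 2 such errors, as did 57 of 58 with okadaic acid. Over all named genes it was 8646 of 8749 with cantharidin and 7885 of 7970 with okadaic acid. A call at 1.5-fold already exceeds 2 errors where the error is small, so these counts add little to the calls. The errors after the ± sign below are the scanner's errors, combined over both arrays. AFAP1-AS1, antisense to an actin filament-associated protein, had 9 usable spots per array, with intensities of 57.3 ± 19.5 (SD over spots) for control, 51.8 ± 14.0 with cantharidin and 72.1 ± 7.57 with okadaic acid, and the ranges of 1 SD overlapped between all arrays.

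The shares called are also given for the dimmer ranges of signal. Among those detected on both arrays with a mean scaled signal below -3 on the log2 scale, 5 of 53 were higher and 18 lower with cantharidin (9.43% and 34.0%), and genes at large in that range had 10.9% and 29.6%. With okadaic acid it was 6 higher and 3 lower of 41, where genes at large had 21.9% higher and 10.2% lower. From -3 to -1, 18 of 64 were higher and 24 lower with cantharidin (28.1% and 37.5%), beside 23.2% and 31.7% of genes at large. With okadaic acid 14 of 63 were higher and 14 lower (22.2% each), beside 26.5% and 24.6%. The brighter ranges held 29 and 12 antisense RNAs with each agent, and their shares are not given here.

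The largest difference with cantharidin among antisense RNAs detected on both arrays was that of BCL10-AS1. Its sense gene BCL10 encodes an adaptor that links immune receptors to NF-κB. BCL10-AS1 had intensities of 97.1, 3104 and 3076, that is, it was low on the control array and high with both agents. The log2 difference was 5.14 ± 0.235 with cantharidin (35.2-fold) and 4.73 ± 0.235 with okadaic acid (26.5-fold). BCL10 itself had 111, 192 and 424, which is 1.90-fold and 3.20-fold higher.

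TPT1-AS1 lies next to TPT1, the gene of translationally controlled tumour protein. Its intensities were 241, 3415 and 1607, with differences of 3.97 ± 0.21 (15.6-fold) and 2.48 ± 0.21 (5.59-fold). TPT1 was among the brightest genes on the arrays, with 161230, 227810 and 213920. It was 1.56-fold higher with cantharidin and 1.11-fold higher with okadaic acid, which is not a call.

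ZNF143-AS1, beside a zinc finger transcription factor gene, had 315, 1635 and 6087, so its order differed from that of TPT1-AS1 and okadaic acid gave the highest signal. The fold differences from control were 5.72 and 16.2, and ZNF143 had 1171, 2391 and 1814. SVIL-AS1, antisense to the gene of the actin-binding protein supervillin, had 392, 2367 and 2206 (6.64-fold and 4.71-fold higher). SVIL went the other way, with 1238, 774 and 978, where 1.45-fold lower with cantharidin was not a call and 1.51-fold lower with okadaic acid was. IDI2-AS1 had 51.8, 795 and 189, and was 16.9-fold higher with cantharidin and 3.07-fold higher with okadaic acid.

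For some antisense RNAs the control signal was not well above background, so that only a lower bound on the fold can be given, against the lowest detectable signal on that array, and 4 of these are given here. TNFRSF10B-AS1, antisense to a death receptor gene, had 11.04, 1390 and 195. It was at least 43.7-fold higher with cantharidin and at least 4.66-fold higher with okadaic acid. TNFRSF10B had 8612, 58610 and 14826, 7.49-fold higher with cantharidin and 1.44-fold higher with okadaic acid. FBXL19-AS1 had 14.5, 1135 and 951, higher by at least 35.7-fold with cantharidin and at least 22.8-fold with okadaic acid, beside FBXL19 with 2828, 1706 and 3438, a gene whose protein binds unmethylated CpG sites. These values rest on 1 of its 2 probes. The other was detected on all 3 arrays at 139, 141 and 182, with differences of 0.16 and 0.13, so that FBXL19-AS1 was called with neither agent on it. ST20-AS1 had 27.7, 561 and 64.9, at least 17.6-fold higher with cantharidin and at least 1.55-fold higher with okadaic acid. ATP6V0E2-AS1 had 7.84, 28.9 and 149, and was at least 3.56-fold higher with okadaic acid, while ATP6V0E2, a proton pump subunit gene, was 7.62-fold lower with cantharidin and 3.29-fold lower with okadaic acid.

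Other antisense RNAs were among the highest relative to control with okadaic acid, and A1BG-AS1 of these was not called with cantharidin. A1BG-AS1 had 150, 134 and 1527, a difference of -0.02 ± 0.23 with cantharidin and 3.10 ± 0.22 with okadaic acid (8.55-fold). ZNF674-AS1 had 529, 1558 and 4679, 3.24-fold and 7.41-fold higher. UNC5B-AS1 had 68.8, 151 and 670, 2.42-fold and 8.15-fold higher, and UNC5B, which encodes a netrin receptor, had 278, 2182 and 6712 (8.65-fold and 20.3-fold higher).

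Promoter windows of 4 of these antisense RNAs are shown because they had some of the largest differences and sit beside sense genes that did not follow them to the same size. Each window runs from 250 bases before to 50 bases after the transcript start, 5′ to 3′ on the strand of the antisense RNA, from RefSeq on GRCh38.p14. The windows are chr1:85276108-85276407 on the plus strand, chr16:30923220-30923519 on the minus strand, chr13:45341095-45341394 on the plus strand and chr11:9460649-9460948 on the minus strand. Capitals mark matches, on either strand, to 7 motifs: TGANTCA (the AP-1 site), TGACGTCA (the cAMP response element), TGATGNAA (a C/EBP-ATF composite), GGNNTTTCC (part of the NF-κB site), CCAAT (the motif bound by NF-Y), GGGCGG (the GC box bound by SP1) and TATAAA (the motif for TBP).
BCL10-AS1: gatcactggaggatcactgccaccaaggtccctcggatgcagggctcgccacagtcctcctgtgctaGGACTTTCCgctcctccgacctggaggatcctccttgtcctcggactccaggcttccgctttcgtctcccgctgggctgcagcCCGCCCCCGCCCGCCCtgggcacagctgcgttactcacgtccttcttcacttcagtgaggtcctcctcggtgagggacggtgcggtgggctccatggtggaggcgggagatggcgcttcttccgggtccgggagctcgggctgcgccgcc
FBXL19-AS1: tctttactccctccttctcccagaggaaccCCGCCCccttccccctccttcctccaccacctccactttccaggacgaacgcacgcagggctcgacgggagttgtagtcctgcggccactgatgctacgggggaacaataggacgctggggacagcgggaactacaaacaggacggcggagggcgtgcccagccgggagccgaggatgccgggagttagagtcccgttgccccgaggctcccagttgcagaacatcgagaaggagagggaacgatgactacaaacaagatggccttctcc
TPT1-AS1: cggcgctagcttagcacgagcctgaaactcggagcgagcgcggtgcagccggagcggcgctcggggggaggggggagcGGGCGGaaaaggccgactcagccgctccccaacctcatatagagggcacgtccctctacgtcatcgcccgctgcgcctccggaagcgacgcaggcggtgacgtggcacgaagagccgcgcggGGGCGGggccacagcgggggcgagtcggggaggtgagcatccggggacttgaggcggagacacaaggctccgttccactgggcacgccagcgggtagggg
ZNF143-AS1: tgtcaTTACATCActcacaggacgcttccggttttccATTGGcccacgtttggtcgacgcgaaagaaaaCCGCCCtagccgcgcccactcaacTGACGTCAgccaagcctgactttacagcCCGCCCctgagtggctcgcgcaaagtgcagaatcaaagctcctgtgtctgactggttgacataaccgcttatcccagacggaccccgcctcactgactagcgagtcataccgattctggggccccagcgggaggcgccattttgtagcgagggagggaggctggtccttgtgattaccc

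BCL10-AS1 had 3 GC boxes and 1 match to GGNNTTTCC in this window, FBXL19-AS1 had 1, TPT1-AS1 had 2, and ZNF143-AS1 had 2 with 1 match each to TGACGTCA, TGATGNAA and CCAAT. The nearest annotated sense start lay 274 bases away for BCL10-AS1, 214 for FBXL19-AS1, 162 for TPT1-AS1 and 314 for ZNF143-AS1. A promoter window of the sense gene shared at most 198 bases with that of FBXL19-AS1, 261 with that of TPT1-AS1 and 187 with that of ZNF143-AS1. The window sharing most bases need not belong to the nearest start. The BCL10 windows did not overlap, which at 274 bases places the BCL10-AS1 start downstream of the BCL10 start. From there BCL10-AS1 runs towards the BCL10 start and not away from it. A GC box stood in 45.0% of all 35116 promoter windows, CCAAT in 34.6%, TATAAA in 11.5%, TGANTCA in 7.71%, GGNNTTTCC in 6.26%, TGATGNAA in 3.62% and TGACGTCA in 1.85%. In the 240 windows of the 208 antisense RNAs with an entry, the shares were 47.1%, 35.0%, 5.00%, 7.08%, 8.33%, 2.08% and 3.33%. GC boxes may overlap each other, and a match is a description of the letters only.

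Among antisense RNAs with lower signals, DHRS4-AS1 had the largest difference with cantharidin. DHRS4 encodes a short-chain dehydrogenase that reduces retinal. DHRS4-AS1 had 331, 47.5 and 104, a difference of -2.66 ± 0.27 with cantharidin (6.34-fold lower) and -1.92 ± 0.27 with okadaic acid (3.79-fold lower). DHRS4 had 1020, 153 and 298, 6.05-fold and 4.08-fold lower, close to the differences of this DHRS4-AS1 probe. A second DHRS4-AS1 probe, detected at 90.3, 61.5 and 134, gave differences of -0.42 and 0.32, neither of them a call and the latter of opposite sign. This second probe was the more intense with both agents. SERTAD4-AS1 had 453, 67.2 and 63.6. It was 6.13-fold lower with cantharidin and at least 8.50-fold lower with okadaic acid, where its signal was not well above background.

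VPS9D1-AS1, also known as MYU, is studied in colorectal cancer as a MYC target. Its brighter probe had 714, 106 and 979 and was low on the cantharidin array alone. The difference was -2.61 ± 0.22 with cantharidin (6.11-fold lower) and 0.20 ± 0.21 with okadaic acid, and VPS9D1 had 5056, 2862 and 3553. The second VPS9D1-AS1 probe, detected at 85.5, 52.3 and 74.7, gave -0.57 and -0.45, neither of them a call. MAPKAPK5-AS1, beside a stress-activated kinase gene, had the same order with 1308, 220 and 1713, 5.41-fold lower with cantharidin and 1.097-fold higher with okadaic acid. DICER1-AS1 had 183, 29.6 and 114, 5.59-fold and 1.91-fold lower. DICER1, the gene of the enzyme that cuts microRNA precursors, went the other way with 254, 542 and 872, 2.35-fold and 2.88-fold higher.

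Under okadaic acid the lowest signal relative to control was that of KTN1-AS1, with 1168, 530 and 149. The difference was -1.002 ± 0.21 with cantharidin (2.00-fold lower) and -3.22 ± 0.24 with okadaic acid (9.33-fold lower), while KTN1, which encodes the kinesin anchor kinectin, had 1839, 1034 and 2434. TNS2-AS1, antisense to a focal adhesion gene, had 768, 267 and 138, 2.62-fold and 6.66-fold lower. JMJD1C-AS1 had 602, 148 and 116, KDM4A-AS1 had 337, 63.0 and 102, and both were antisense to genes of histone demethylase proteins. ZBED5-AS1 had 1612, 399 and 489 (3.67-fold and 3.94-fold lower). All 5 were highest on the control array.

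Among antisense RNAs that were dim with an agent, KLF3-AS1 had 80.3, 6.91 and 24.1, and was at least 3.33-fold lower with cantharidin and at least 1.65-fold lower with okadaic acid. KLF3, a Krüppel-like repressor gene, was 2.45-fold and 2.60-fold higher. RHPN1-AS1 (59.3, 7.70 and 107) was at least 2.46-fold lower with cantharidin, MZF1-AS1 (61.7, 22.9 and 82.4) at least 2.45-fold lower with cantharidin, and LMCD1-AS1 (111, 50.03 and 15.1) at least 2.28-fold lower with okadaic acid. MZF1, a zinc finger transcription factor gene of myeloid cells, was 11.4-fold higher with cantharidin, opposite to the antisense RNA.

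**Figure D2:**
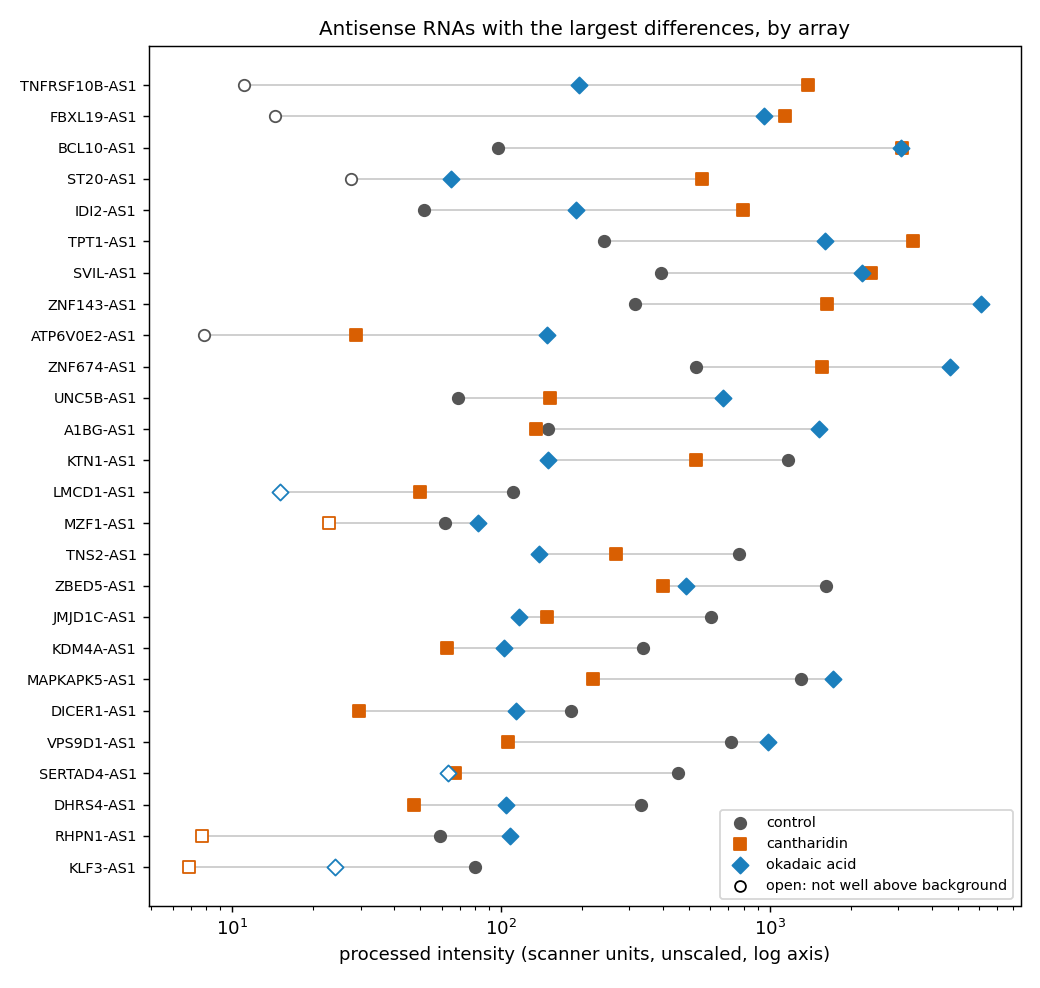
Processed intensity on a log axis of the 26 antisense RNAs with the largest differences, on the control (grey circle), cantharidin (orange square) and okadaic acid (blue diamond) arrays, sorted by the cantharidin difference, with open symbols where the signal was not well above background. BCL10-AS1 went from 97.1 on the control array to 3104 and 3076 with the agents, and MAPKAPK5-AS1 was low on the cantharidin array alone.

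Windows of 4 antisense RNAs with lower signals are shown for comparison, with the same marks. They are chr14:95157438-95157737 on the plus strand, chr16:89711606-89711905 on the plus strand, chr14:55580043-55580342 on the minus strand and chr12:53054389-53054688 on the minus strand.
DICER1-AS1: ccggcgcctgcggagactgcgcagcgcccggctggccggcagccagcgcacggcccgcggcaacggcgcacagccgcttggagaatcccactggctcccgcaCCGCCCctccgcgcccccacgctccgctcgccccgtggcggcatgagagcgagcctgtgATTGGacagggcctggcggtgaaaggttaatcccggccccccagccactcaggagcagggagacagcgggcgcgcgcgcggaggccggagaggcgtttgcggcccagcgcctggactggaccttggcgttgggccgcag
VPS9D1-AS1: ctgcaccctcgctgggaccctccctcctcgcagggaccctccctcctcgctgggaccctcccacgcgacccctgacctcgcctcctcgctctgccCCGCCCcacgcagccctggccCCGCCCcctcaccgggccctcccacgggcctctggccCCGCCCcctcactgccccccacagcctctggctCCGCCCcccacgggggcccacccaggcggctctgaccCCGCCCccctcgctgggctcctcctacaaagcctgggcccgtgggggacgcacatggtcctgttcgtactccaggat
KTN1-AS1: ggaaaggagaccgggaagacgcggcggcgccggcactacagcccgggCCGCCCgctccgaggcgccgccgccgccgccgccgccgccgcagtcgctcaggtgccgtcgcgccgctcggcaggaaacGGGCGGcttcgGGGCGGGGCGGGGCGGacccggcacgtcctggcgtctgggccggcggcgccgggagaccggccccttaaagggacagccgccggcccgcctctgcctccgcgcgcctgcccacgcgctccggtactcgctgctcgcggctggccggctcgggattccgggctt
TNS2-AS1: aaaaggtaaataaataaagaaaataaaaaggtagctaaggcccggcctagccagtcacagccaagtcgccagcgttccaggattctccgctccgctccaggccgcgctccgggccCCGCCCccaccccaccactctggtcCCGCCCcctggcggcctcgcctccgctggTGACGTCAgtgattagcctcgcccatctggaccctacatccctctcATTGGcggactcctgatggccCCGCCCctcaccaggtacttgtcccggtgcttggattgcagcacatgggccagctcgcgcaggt

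KTN1-AS1 and VPS9D1-AS1 each had 5 GC boxes in the window, TNS2-AS1 had 3 and DICER1-AS1 had 1. DICER1-AS1 and TNS2-AS1 each had 1 CCAAT, and TNS2-AS1 had 1 TGACGTCA. The DICER1-AS1 start lay 159 bases from that of DICER1 and the KTN1-AS1 start 115 bases from that of KTN1, whereas VPS9D1-AS1 and TNS2-AS1 started 9042 and 5249 bases from the sense start. The GC content of the 8 windows ran from 58.0% for ZNF143-AS1 to 80.0% for KTN1-AS1.

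For 4 antisense RNAs the difference from the shared control array was called higher with 1 agent and lower with the other. The share of all named genes called this way was not counted, so nothing is read from the number of antisense RNAs. WDFY3-AS2 had 398, 616 and 242, 1.70-fold higher with cantharidin and 1.96-fold lower with okadaic acid. ZNF205-AS1 had 65.2, 160 and 16.2, 2.70-fold higher with cantharidin, and at least 1.34-fold lower with okadaic acid, where it was dim. That bound is under 1.5-fold, so the call with okadaic acid rests on the dim signal itself. RHPN1-AS1, given above, was lower with cantharidin and 1.52-fold higher with okadaic acid. ZNF436-AS1 had 1671, 600 and 4339 on its brighter probe, 2.53-fold lower and 2.18-fold higher. Its second probe had 253, 38.0 and 128 and was lower with both agents, so its direction with okadaic acid depended on the probe.

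Cantharidin and okadaic acid were also compared directly, which leaves out the control array. Of 190 antisense RNAs compared, 50 (26.3%) were higher with okadaic acid and 41 (21.6%) lower, beside 29.5% and 22.3% over all 16200 named genes. Among the 151 detected on both of these arrays, 42 (27.8%) were higher and 26 (17.2%) lower, beside 30.4% and 20.2% over all genes. The median difference was 0.20, against 0.13 over all genes. A1BG-AS1 was 8.65-fold higher with okadaic acid, VPS9D1-AS1 7.02-fold higher on its brighter probe (0.12 on the log2 scale on the other) and MAPKAPK5-AS1 5.93-fold higher. ST20-AS1 was 11.4-fold lower, TNFRSF10B-AS1 9.38-fold lower and VLDLR-AS1, antisense to a lipoprotein receptor gene, 6.32-fold lower. BCL10-AS1 differed by -0.41 ± 0.20 and SVIL-AS1 by -0.50 ± 0.20 between the agents, both under 1.5-fold. With no replicate array, no interval for these differences between cultures can be given.

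Each antisense RNA was then set beside its sense gene, where both were compared. With cantharidin there were 169 such pairs. Both genes were called in the same direction in 40 pairs (17 both higher, 23 both lower) and in opposite directions in 32 (16 with the antisense RNA higher and 16 with it lower). In 37 pairs only the antisense RNA was called, in 34 only the sense gene, and in 26 neither. Within the pairs the antisense RNA was called higher in 48 and lower in 61, and the sense gene in 46 and 60. Matches between unrelated genes were not counted beside these. Across these pairs the correlation of the log2 differences was r = 0.055, over genes that share their arrays and are not independent replicates.

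With okadaic acid there were 148 pairs, of which 18 were called in the same direction (10 both higher, 8 both lower) and 17 in opposite directions (9 with the antisense RNA higher and 8 with it lower). Only the antisense RNA was called in 29 pairs, only the sense gene in 46, and neither in 38. Within these pairs the antisense RNA was called higher in 36 and lower in 28, and the sense gene in 47 and 34. The correlation was r = 0.039. Of the sense genes compared, 28.3% were called higher and 24.7% lower with okadaic acid, and 23.9% and 37.4% with cantharidin.

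**Figure D3:**
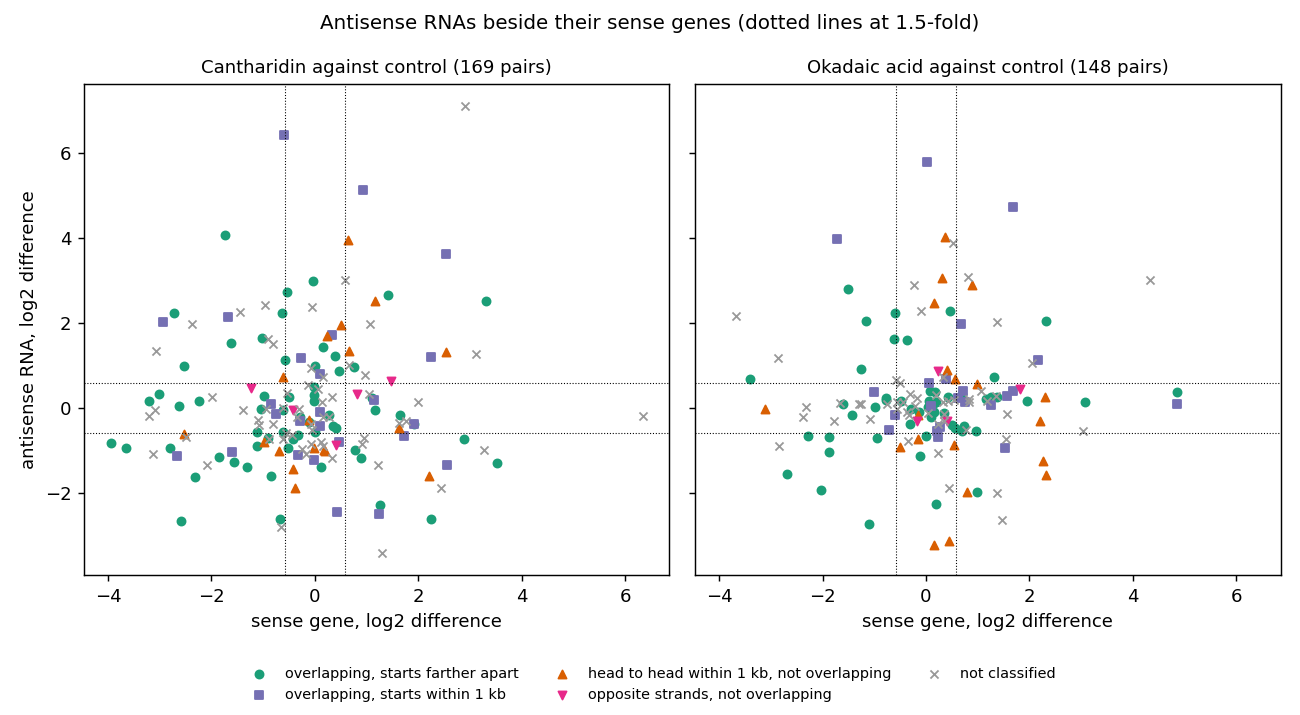
Log2 difference from control of each antisense RNA against that of its sense gene, for 169 pairs with cantharidin and 148 with okadaic acid, with symbols for the arrangement of the pair and dotted lines at 1.5-fold. The points spread over all 4 quadrants, with r = 0.055 and r = 0.039.

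JMJD1C-AS1 and JMJD1C were opposite with both agents. The antisense RNA was 3.70-fold and 6.19-fold lower, and JMJD1C, with 132, 647 and 436, was 5.40-fold and 2.77-fold higher. CIRBP-AS1 had 235, 613 and 632 and was 2.87-fold and 2.25-fold higher, while CIRBP, the gene of a cold-inducible RNA-binding protein, had 3902, 2016 and 641 and was 1.76-fold and 7.27-fold lower.

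Other pairs were opposite with a single agent. MNX1, a homeobox gene, had 634, 429 and 3777 and was 4.99-fold higher with okadaic acid, where MNX1-AS1 (339, 114 and 136) was 2.98-fold lower. THUMPD3-AS1 had 193, 410 and 1596 and was 6.94-fold higher with okadaic acid, with THUMPD3, a tRNA methyltransferase subunit gene, 2.84-fold lower. With cantharidin, VLDLR-AS1 (209, 836 and 174) was 4.40-fold higher and VLDLR 3.21-fold lower, and ZMIZ1-AS1 (102, 445 and 192) was 4.80-fold higher and ZMIZ1, a transcriptional coactivator gene, 2.73-fold lower. ZNF436-AS1 was 2.53-fold lower with cantharidin and ZNF436 5.91-fold higher.

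Pairs called in the same direction with both agents included UNC5B-AS1, BCL10-AS1 and, on its brighter probe alone, DHRS4-AS1, given above. HDHD5-AS1 had 649, 190 and 263, 3.10-fold and 2.95-fold lower, and HDHD5 had 5166, 946 and 957, 4.96-fold and 6.45-fold lower. SOCS2-AS1 had 141, 215 and 691 and was 4.10-fold higher with okadaic acid, where SOCS2, a suppressor of cytokine signalling, was 2.58-fold higher. With cantharidin, JAZF1-AS1 was 2.55-fold and JAZF1 4.23-fold lower, and WAC-AS1 was 2.49-fold and WAC 5.82-fold higher. TNS2-AS1 was 2.62-fold and TNS2 2.47-fold lower. With cantharidin the log2 difference of the antisense RNA minus that of its sense gene was -0.07 for DHRS4-AS1 and -0.08 for TNS2-AS1, under the scanner's error, and 0.68 for HDHD5-AS1.

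**Figure D4:**
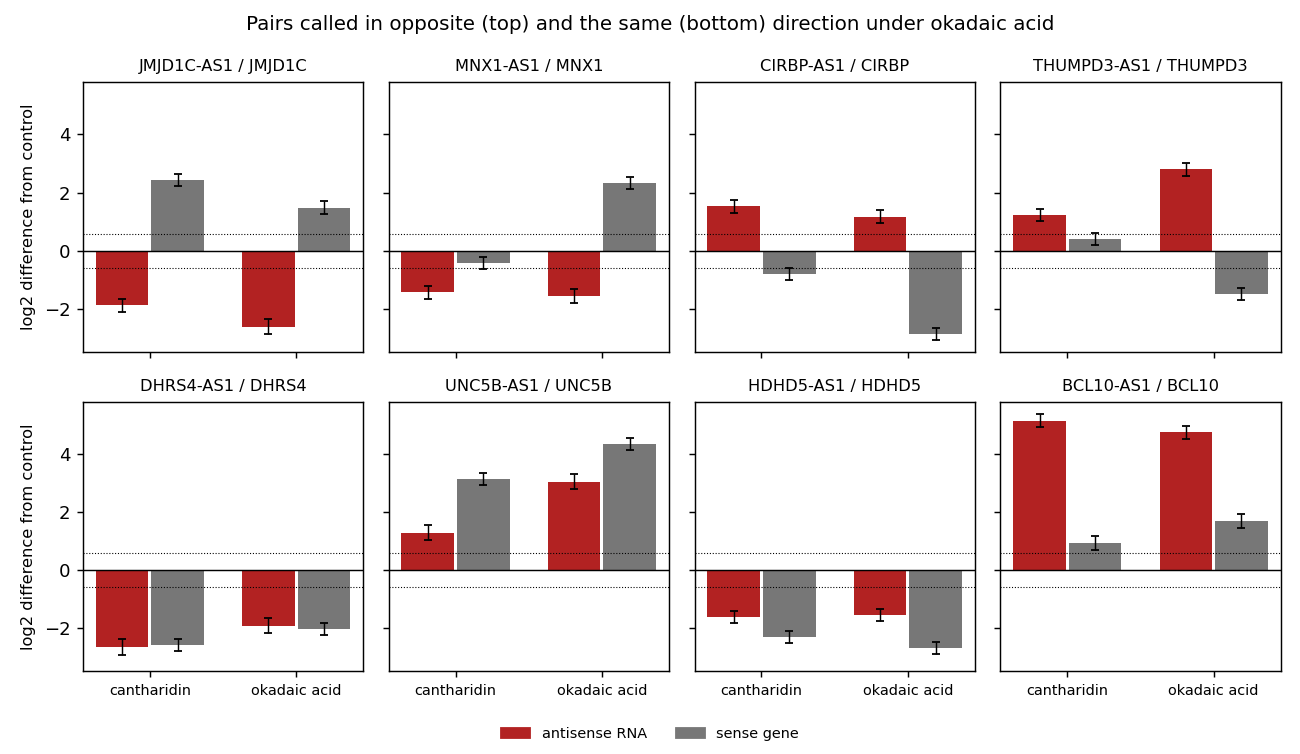
Log2 difference from control, with the scanner's error, of 8 antisense RNAs (red) and their sense genes (grey) under each agent, with dotted lines at 1.5-fold. The upper row holds pairs called in opposite directions with okadaic acid, such as JMJD1C-AS1 at -2.63 and JMJD1C at 1.47, and the lower row pairs called in the same direction.

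RefSeq gave the limits and strand of both genes for 176 of the 275 pairs, and a start here is the gene's limit at its 5′ end. Of these pairs, 111 overlapped on opposite strands with starts farther than 1 kb apart and 36 overlapped with starts within 1 kb. Another 24 lay head to head within 1 kb without overlap, and 5 lay on opposite strands without either. With cantharidin, head-to-head pairs were in the same direction 7 times and opposite 2 times among 18, pairs overlapping with close starts 5 and 6 times among 25, and pairs overlapping with distant starts 15 and 12 times among 61. With okadaic acid the head-to-head pairs were in the same direction 1 time and opposite 3 times among 19, with the antisense RNA alone called in 10. Pairs overlapping with close starts were in the same direction 3 times and opposite 2 times among 22. Those overlapping with distant starts were so 9 and 7 times among 52. The counts are small. How the RNA was labelled, and whether this kept the strand, is not given in the sources used here. Where the labelling did not keep it, signal from overlapping transcripts of a pair cannot be told apart.

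Antisense RNAs that are often studied in cancer, 27 of which were on the array, had 6 higher and 11 lower with cantharidin among 21 compared (median -0.67), and 2 higher and 4 lower with okadaic acid (median -0.29). Over all antisense RNAs these medians were -0.18 and 0.11. The shares called over all named genes were 27.5% higher and 34.1% lower with cantharidin and 28.1% and 28.8% with okadaic acid, and the list is small beside them. OIP5-AS1, a cytoplasmic RNA known to bind the RNA-stabilising protein HuR, had 3833, 1806 and 2228, 1.93-fold and 2.05-fold lower, and OIP5, which loads centromeric histone, had 6058, 437 and 1970. EPB41L4A-AS1 had 11279, 20406 and 11629 and was 1.99-fold higher with cantharidin. NR2F1-AS1 had 576, 1040 and 681, also 1.99-fold higher with cantharidin, where the nuclear receptor gene NR2F1 was 5.79-fold lower. This held for the brighter NR2F1-AS1 probe, and the other, with 92.5, 63.3 and 12.5, had a difference of -0.41 with cantharidin and was not well above background with okadaic acid. FEZF1-AS1 had 268, 886 and 230 and was 3.64-fold higher with cantharidin, while its sense gene FEZF1 was not detected.

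Where the sense gene is a transcription factor, 13 of 19 antisense RNAs were compared, with 3 higher and 7 lower for cantharidin and 2 higher and 3 lower for okadaic acid, beside 27.5% and 34.1% of all named genes with cantharidin and 28.1% and 28.8% with okadaic acid. LBX2-AS1 had 13610, 7787 and 11180 and was 1.59-fold lower with cantharidin, opposite to LBX2 at 3.30-fold higher. FOXD2-AS1 had 368, 183 and 354 (1.83-fold lower with cantharidin) and FOXN3-AS1 had 179, 102 and 115 (1.60-fold and 1.86-fold lower).

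Where the sense gene encodes a kinase, phosphatase, G protein or a regulator of these, 6 of 10 were compared, with 1 higher and 3 lower for cantharidin and 1 in each direction for okadaic acid, too few to set against the 27.5%, 34.1%, 28.1% and 28.8% over all named genes. GNG12-AS1 had 1618, 565 and 882 and was 2.60-fold and 2.19-fold lower, while GNG12, a G protein gamma subunit gene, had 1364, 1352 and 1504. PIK3CD-AS1 (569, 317 and 476) was 1.63-fold lower with cantharidin, with the lipid kinase gene PIK3CD 1.94-fold higher, and DLG5-AS1 (357, 195 and 453) was 1.67-fold lower. MAP3K14-AS1 (113, 121 and 97.3) and PRKCQ-AS1 (40.5, 36.0 and 61.1) were not called with either agent.

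Among antisense RNAs whose sense gene acts in the cell cycle, beside OIP5-AS1, given above, RAD21-AS1, antisense to a cohesin subunit gene, had 7.71, 37.9 and 15.7 and was detected with cantharidin alone, at least 1.19-fold higher. CDKN2A-AS1 was not called, with differences of -0.51 and -0.15. CDKN2B-AS1, also known as ANRIL, was not detected on the 3 arrays.

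HLA-F-AS1 had the brightest probe of any antisense RNA on the control array, with 56791, 50084 and 80680. It was not called with either agent, and HLA-F, a non-classical class I antigen gene, had 27607, 55781 and 44043, 2.22-fold higher with cantharidin. STPG3-AS1 had 5570, 3430 and 4073, which was 1.63-fold lower with okadaic acid and under the threshold with cantharidin.

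Several probes were present for 33 antisense RNAs, and they did not always point the same way. With cantharidin, probes differed in sign for 12 of the 23 with more than 1 probe compared, and with okadaic acid for 7 of 21. Those called in both directions were MATN1-AS1, TTC28-AS1 and VAC14-AS1 with cantharidin and MATN1-AS1 and ZNF436-AS1 with okadaic acid. MATN1-AS1 is named for this disagreement, after its values were seen. The probe with the higher mean log2 signal had 3022, 1093 and 2192 (differences of -1.33 and -0.72). Its second probe had 111, 12896 and 2266 (6.99 and 4.09), and so was the more intense with both agents. The second probe's difference with cantharidin was larger than that of any antisense RNA on its brightest probe among those detected on both arrays.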

How the data were processed

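The members and gene lists were chosen with earlier results of these data known. The deposited scanner files give an intensity per spot, computed in Feature Extraction 11.0.1.1 by background subtraction and spatial detrending within the array, on probes annotated to hg19. Further deposited columns, of kind other, held flags for outlier spots and for signal well above background, and an error for each intensity. A series table deposited by the authors holds normalized log2 values of 30923 probes. How it was made is not given in the sources used here, and it served as an alternative. RNA from control, cantharidin and okadaic acid cells was on 1 array each, on 1 slide and in 1 scan, so array position and group cannot be told apart.

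Processed intensities were averaged as log2 over unflagged spots and each array's 75th percentile subtracted (intensities of 784, 713 and 936 for control, cantharidin and okadaic acid). RefSeq accessions without version were matched to symbols of GRCh38.p14, which named 25705 of 34041 probes. A gene was its probe with the highest mean signal. A gene was compared when well above background on at least 1 of 2 arrays and called at 1.5-fold. Where the gene was dim on 1 array, "at least" marks a lower bound on the fold, set by the lowest signal well above background on that array or by the dim signal if higher. No pseudocount was added in the main setting, while the normexp alternative added an offset of 50. No test or p-value was used. The sense gene is the symbol before the last hyphen. Pair arrangement came from the limits of each gene in RefSeq, with the strand taken from its promoter entry.

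Named antisense RNAs were the 5 largest differences per agent and direction among those detected on both arrays whose detected probes had 1 sign, the 3 largest bounds, up to 6 with opposite directions under the agents, up to 5 pairs per agent in opposite and in the same direction, the 5 brightest, up to 6 per list and the 3 largest per direction between the agents. There were 11 alternatives, given in the closing section. The counting was tested on simulated data. Python 3.11.15 with numpy 2.4.6, pandas 2.3.3 and matplotlib 3.10.9, and R 4.3.3 with limma 3.58.1 (normexp) were used. The number of arrays limits the precision. Some antisense RNAs of these lists and pairs are not reported here, and no counts are given for the list of cell cycle, replication and repair genes.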

Additional observations from a re-analysis of the deposited data

How the results depend on the processing

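The 11 alternatives changed 1 choice at a time, except for the normexp correction. It started from median spot and background intensities and so also left out the spatial detrending in the processed signal. It also added an offset of 50 to each intensity, which by itself makes the fold differences of dim probes smaller. Of 1358 values of named antisense RNAs and medians under the alternatives, 861 moved by less than the noise between replicate spots, 494 moved by more and 3 reversed. The reversed values were ATP6V0E2-AS1 with cantharidin at -0.14 with dim signals at the floor of their array (2.02 otherwise), RAD21-AS1 between the agents at 0.22 under the same setting (-1.66 otherwise), and ZNF436-AS1 with okadaic acid at -0.058 as the median over its probes (1.12 otherwise).

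With normexp, 42 antisense RNAs (21.2%) were higher and 38 (19.2%) lower with cantharidin (56 and 69 otherwise), beside 22.7% and 26.0% of all genes. With okadaic acid 28 (15.2%) were higher and 28 (15.2%) lower (44 and 36 otherwise), beside 22.3% and 24.4% of all genes. In okadaic acid against cantharidin 20 (10.5%) were higher and 24 (12.6%) lower (50 and 41 otherwise), beside 19.5% and 18.5% of all genes. With cantharidin 20 pairs were in the same direction and 20 in opposite directions. With signals well above background on all 3 arrays, 33 antisense RNAs (23.4%) were higher and 48 (34.0%) lower with cantharidin, beside 26.1% and 33.0% of all genes. In okadaic acid against cantharidin 40 (28.4%) were higher and 22 (15.6%) lower, beside 30.3% and 20.0% of all genes. In this setting 22 pairs were in the same and 19 in opposite directions with cantharidin. At 2-fold, 44 (22.2%) were higher and 38 (19.2%) lower with cantharidin, beside 20.1% and 22.3% of all genes. With okadaic acid 30 (16.3%) were higher and 22 lower, where 18.8% of all genes were higher and about as many lower. In okadaic acid against cantharidin 24 (12.6%) were higher and 32 (16.8%) lower, beside 16.5% and 13.6% of all genes. The larger side of the antisense RNAs turned for cantharidin and between the agents under both normexp and the 2-fold threshold. That of all genes did not. Pairs in the same and opposite directions at 2-fold were 18 and 18 for cantharidin and 10 and 9 for okadaic acid. Without scaling, 95 of 190 antisense RNAs were higher in okadaic acid against cantharidin, beside 47.1% of all genes, and 29 pairs were in the same direction with okadaic acid. Without a filter on dim probes 118 (41.4%) were higher between the agents, beside 36.5% of all genes, and the pairs were again 29. The cause of these shifts was not tested, beyond the fewer genes that the stricter settings admit.

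Of the antisense RNAs called with okadaic acid, 55.0% were higher, against 44.7% after scaling to the median and 68.2% without scaling. Without scaling the median of all genes stood at 0.26. Of all genes compared with okadaic acid, 28.1% were higher and 28.8% lower in the main setting. After scaling to the median these were 24.8% and 32.4%, and without scaling 36.6% and 22.4%. Of the antisense RNAs called between the agents, 54.9% were higher, against 44.7% after quantile normalization and 74.8% without scaling. Of all genes compared between the agents, 29.5% were higher and 22.3% lower in the main setting. After quantile normalization these were 26.2% and 24.2%, and without scaling 47.1% and 13.9%. The shift with scaling was thus shared by all genes. The table of normalized values gave 44 antisense RNAs (23.9%) higher and 47 (25.5%) lower with okadaic acid, beside 28.9% and 30.5% of all genes. No paired analysis was possible because each group had 1 array. Signal near background limits the dim antisense RNAs, 85 of which had no measurable level on any array.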

Other observations

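Antisense RNAs with other suffixes or newer names were left out by the choice of symbols, and some had large differences. HOXA11-AS, from the HOXA cluster, had intensities of 40.4 on the control array, 254 with cantharidin and 1348 with okadaic acid. WT1-AS had 106, 177 and 450. Divergent transcripts whose older names ended in AS1, AS2 or AS3 included PTGES2-DT with 75.8, 155 and 2550, CTBP1-DT with 186, 877 and 975, UBA6-DT with 1113, 4245 and 887, and CNN3-DT with 399, 115 and 97.2. KCNQ1OT1, the antisense RNA of an imprinted domain, had 33.2, 347 and 138 and was not well above background on the control array, and RFPL3S had 32.6, 1495 and 750 with the same limit. HOTAIR, which binds chromatin regulators, had 122, 34.6 and 13.4, the last of these not well above background. ZFAS1, a host of small nucleolar RNAs, had 69232, 78416 and 83879. These genes were picked after their values were seen.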
